A study of Mus musculus with 36 samples.

Results

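The response of mouse intestinal organoids to 24 h with 9-cis retinoic acid (9cisRA, 10 µM) was described across all genes, with 4 treated libraries set against 4 libraries of organoids kept for the same time with the vehicle DMSO. These 8 of the 36 libraries of the series were chosen by their labelled time and treatment, and no measured value entered the choice. Both groups came from the same 2 organoid cultures, 1 from each of 2 male littermates (wild-type C57BL/6, age 8 weeks), with RNA purified in duplicate from each culture, so that n = 2 cultures per group. Cells were seeded singly, at 50000 per well, and grown to day 3 in ENR, a medium with EGF, Noggin and R-Spondin, to which Wnt3a-conditioned medium, the ROCK inhibitor Y-27632 and the GSK3B inhibitor CHIR99021 had been added. On day 3 both groups were changed to ENR without these additions as the compound or the vehicle was given, and the RNA of 3 wells was pooled. Treatment effects are thus effects on organoids that had just lost a Wnt source and both inhibitors. For comparison, 4 libraries with all-trans retinoic acid (atRA, 10 µM, 24 h) and the 6 h libraries with 9cisRA and DMSO, 4 each, from the same 2 cultures were used. Bulk RNA of organoids cannot tell apart a change in the number of cells of a type from a change in RNA per cell, which holds for every result here.

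Retinoic acid acts in the nucleus through retinoic acid receptors (RAR), which bind DNA as pairs with retinoid X receptors (RXR). The all-trans form is a ligand of RAR, while the 9-cis form binds both RAR and RXR. RXR also pairs with receptors for fatty acids (PPAR), oxysterols (LXR), bile acids (FXR), vitamin D (VDR) and xenobiotics (PXR), and some of these pairs, those with PPAR, LXR and FXR among them, can be activated by an RXR ligand alone. In the intestinal epithelium these receptors are known for the control of fatty acid oxidation, sterol export and the hormonal feedback on bile acid synthesis.

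The 4 libraries with 9cisRA held 25.4 to 29.6 M reads (M, mega) over the listed genes. The 4 with DMSO held 25.5 to 28.4 M reads, and at these depths 1 read of a gene of 2000 bases is worth 0.0183 to 0.0219 RPKM, the deposited unit, which corrects reads for gene length and library scale. Duplicates correlated at r = 0.995 to 0.997 across genes. All 10 genes listed as defining gut epithelium were above the filter, with summed levels of 14244 to 17394 RPKM with 9cisRA and 11554 to 13199 with DMSO. Markers of other cells summed to far lower levels but were not absent. Of 18 fibroblast markers, 4 were listed in the table, summing to 3.497 to 5.48 RPKM with 9cisRA and 3.21 to 4.09 with DMSO. Of 19 immune cell markers 5 were listed (10.99 to 12.1 and 7.88 to 9.89 RPKM), and all 5 were above the filter. Of 12 endothelial markers 2 were listed (1.03 to 1.83 and 0.979 to 1.23 RPKM). The other markers of these lists were not analysed here. The library of culture 2, duplicate 1, with 9cisRA stood apart from its 3 companions for several genes, and values without it are given where it matters.

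After 24 h, 9cisRA had moved about as many genes up as down, most of them by little. Of 11361 tested genes, 2775 were called higher than with DMSO (24.4%) and 2671 lower (23.5%) at an adjusted p below 0.05, and 78.6% of these calls were smaller than 0.5 on the log2 scale. At least 2-fold, 122 genes were higher (1.07%) and 38 lower (0.334%). The large changes were thus mostly increases, and 19 genes rose against 1 that fell by at least 4-fold. The higher and lower groups of libraries did not overlap for 121 of the 122 and for 38 of the 38. That follows largely from choosing these genes on the same libraries and is no further support for them. The share without overlap over all tested genes was not counted. Each log2 fold change is the difference of mean log2(RPKM + 0.5) with its SE after the ± sign, so that changes at low levels come out too small, and p-values are from limma with Benjamini-Hochberg adjustment over all tested genes. The divisor behind the deposited RPKM sets the balance of the small changes. Scaling to the sum of reads moved the median of all genes from -0.0017 to -0.12 and the split to 1581 higher and 4585 lower. All 160 genes past 2-fold kept their direction and their call. A shift of that size could not turn a 2-fold change, so that is no further support for them. List medians below are to be read against the median of all tested genes, -0.0017, because it moves with the scaling. List counts are to be read against the 24.4% and 23.5% of all genes. Each list's count was compared with those under another scaling, without the culture block, and without a culture or the library that stood apart. Where it moved by over 1.5 times and by at least 3 genes, or its balance turned, the count is given as higher and lower. Without a culture, the duplicates of the other culture served as samples, so those counts are no check across cultures.

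**Figure D1:**
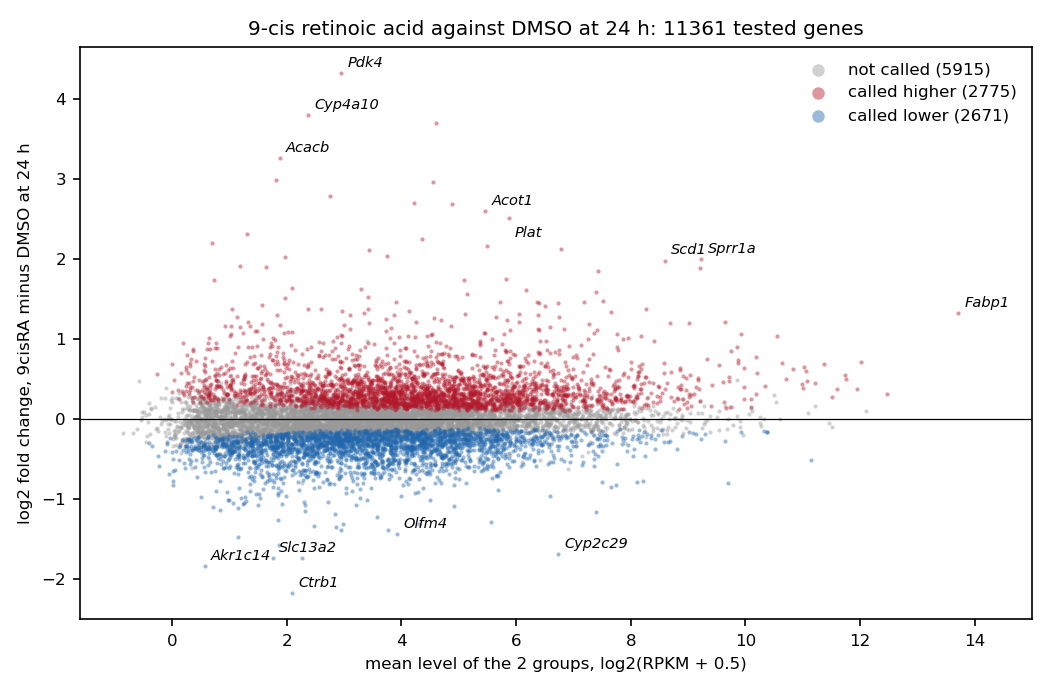
Change against level for the 11361 tested genes: x axis, mean of both groups as log2(RPKM + 0.5); y axis, log2 fold change of 9cisRA against DMSO at 24 h; colours mark the 2775 genes called higher, the 2671 called lower and the rest. The called genes lie mostly within 0.5 of 0, the large changes point up, and Fabp1 is the gene with the highest level.

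Of the 12 largest increases, several were in genes that act on fatty acids or on the choice of fuel. Pdk4, a kinase that shuts pyruvate out of oxidation (chromosome 6, 5483351 to 5496309, GRCm38), was at 13.7, 12.9, 14.3 and 15.9 RPKM with 9cisRA and 0.160, 0.249, 0.318 and 0.212 with DMSO, the values being given here and below in the order culture 1 duplicates 1 and 2, then culture 2 duplicates 1 and 2. The ratio of the means was 60.5, and the log2 fold change was 4.32 ± 0.075 (adjusted p = 5.44e-13). Every treated library stood far above every vehicle library. Cyp4a10, a fatty acid hydroxylase (chromosome 4, 115518264 to 115533649), was at 6.57, 5.57, 12.6 and 12.1 RPKM with 9cisRA and 0.168, 0.166, 0.102 and 0.212 with DMSO (log2 fold change 3.79 ± 0.25, adjusted p = 2.02e-07), with culture 2 responding more than culture 1. Acacb, the acetyl-CoA carboxylase that regulates mitochondrial fatty acid entry, rose by 3.26 ± 0.10 from near the detection limit (range 4.93 to 7.46 RPKM with 9cisRA and 0.167 to 0.211 with DMSO). The thioesterases Acot2, Acot1 and Acot5 rose by 2.68 ± 0.12, 2.60 ± 0.10 and 2.31 ± 0.12. Acot1 and Acot2 are near-identical copies, as are Cyp4a10 and Cyp4a32, so how the reads were split between them is uncertain.

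Among the 12 largest increases were also genes outside lipid oxidation. Cyp26b1, which degrades retinoic acid, rose by 2.99 ± 0.12, and Fgf15, the gut hormone that restrains bile acid synthesis in liver, by 2.96 ± 0.11. Gkn3, a gastrokine listed here among stomach and stem cell genes, rose by 2.71 ± 0.19 (28.7 to 34.9 RPKM with 9cisRA and 4.21 to 5.07 with DMSO). Plat, the tissue plasminogen activator (chromosome 8, 22757727 to 22782844), was at 95.4, 97.6, 103 and 98.2 RPKM with 9cisRA and 13.9, 13.8, 20.4 and 20.7 with DMSO (log2 fold change 2.51 ± 0.10, adjusted p = 3.24e-09). Its level was thus nearly the same in all 4 treated libraries although the vehicle libraries of the 2 cultures differed. The unnamed gene 1810065E05Rik rose by 2.79 ± 0.14.

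The 12 largest decreases were smaller and fell on genes of diverse function. Ctrb1, a digestive chymotrypsinogen (chromosome 8, 111686519 to 111691010), was at 1.23, 0.937, 0.947 and 1.08 RPKM with 9cisRA and 6.06, 5.34, 6.88 and 7.77 with DMSO and fell by 2.171 ± 0.25 (adjusted p = 1.78e-05), the 1 gene past 4-fold. Akr1c14, a hydroxysteroid dehydrogenase, fell by 1.83 ± 0.14 to 0.0716 to 0.277 RPKM. Slc13a2, an importer of dicarboxylates and citrate, fell by 1.73 ± 0.21, and Cyp2c29, an epoxygenase of a family with close copies, by 1.69 ± 0.16 (41.1 to 59.0 RPKM with 9cisRA and 149 to 172 with DMSO). Maob, a monoamine oxidase, fell by 1.38 ± 0.14, and Mme, the brush border peptidase neprilysin, by 1.34 ± 0.17 (2.54 to 4.63 RPKM with 9cisRA and 7.01 to 14.3 with DMSO). Olfm4, a marker of crypt base cells, fell by 1.44 ± 0.26 and Dsg3, a desmosomal cadherin of stratified epithelium, by 1.46 ± 0.13. Mup20 and Cfhr2, secreted proteins best known from liver, fell by 1.38 ± 0.18 and 1.33 ± 0.12, and the near-identical Gm8989 and Gm8979 by 1.74 ± 0.16 and 1.57 ± 0.15.

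**Figure D2:**
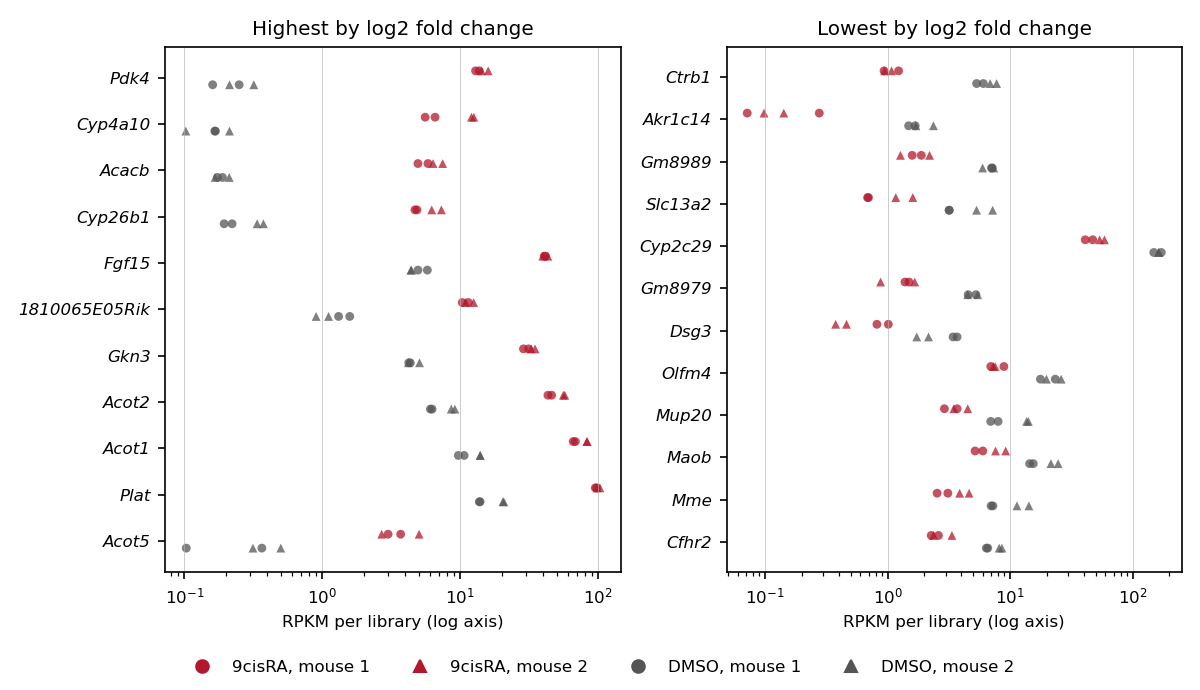
RPKM (log axis) of 11 of the 12 genes with the highest and of the 12 with the lowest log2 fold change at 24 h in each library; red, 9cisRA; grey, DMSO; circles, culture 1; triangles, culture 2. The treated and vehicle libraries of each gene form separate groups, for instance 12.9 to 15.9 against 0.160 to 0.318 RPKM for Pdk4.

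Of the receptors themselves, few rose by much. Rara, the RAR gene of higher level, was at 9.16, 10.8, 10.4 and 8.20 RPKM with 9cisRA and 7.61, 7.14, 6.96 and 6.33 with DMSO (0.43 ± 0.062, adjusted p = 1.17e-04). Rarg changed by 0.29 ± 0.079 (adjusted p = 0.00861), a call lost without the culture block (adjusted p = 0.0810). Rxra lay at 17.9 to 20.7 RPKM with 9cisRA and 15.8 to 18.3 with DMSO, with overlapping groups (0.17 ± 0.058, adjusted p = 0.0274), a call lost under 8 alternatives. Rxrb showed 0.035 ± 0.081 (95% interval -0.14 to 0.21). Among 13 tested partners of RXR, 4 were called higher and 4 lower (4 and 0 without the culture block). The largest change was in Ppara, the fatty acid sensor, at 23.2, 22.7, 26.5 and 26.6 RPKM with 9cisRA and 7.87, 8.90, 10.1 and 10.9 with DMSO (1.35 ± 0.076, adjusted p = 6.08e-08), with no overlap. Pparg fell by 0.25 ± 0.078 (adjusted p = 0.0193, and 0.0921 without the block), and Ppard had a log2 difference of -0.047 ± 0.069 (95% interval -0.20 to 0.10). The FXR gene Nr1h4 rose by 0.73 ± 0.066, the PXR gene Nr1i2 by 0.67 ± 0.050 and the LXR-beta gene Nr1h2 by 0.48 ± 0.075, whereas the LXR-alpha gene Nr1h3 had 0.12 ± 0.13 (95% interval -0.17 to 0.41).

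Of 28 listed genes known to answer retinoic acid, 14 had values here and 13 were tested. Of these 13, 10 were called higher and 0 lower, with a median of 0.49. The counts were 6 and 0 without the culture block, and 7 and 2 under read-sum scaling. Cyp26b1 was at 4.70, 4.86, 7.30 and 6.21 RPKM with 9cisRA and 0.194, 0.222, 0.337 and 0.374 with DMSO (adjusted p = 2.58e-09), so that every treated library was far above every vehicle library. Ripply3, a transcriptional corepressor, rose by 1.08 ± 0.077 (53.3 to 63.9 RPKM with 9cisRA and 25.8 to 31.1 with DMSO), and Tgm2, a transglutaminase, by 0.86 ± 0.068 (11.8 to 12.4 RPKM with 9cisRA and 6.01 to 6.70 with DMSO). Dhrs3, which reduces retinal back to retinol, rose by 0.52 ± 0.10. Isx, the homeobox repressor of carotene uptake, showed 0.51 ± 0.10 (adjusted p = 0.00132, and 0.0585 without the block). Lrat, which esterifies retinol for storage, was below the filter and was not tested. Its levels were 0.141, 0.188, 0.202 and 0.138 RPKM with 9cisRA and 0.606, 0.424, 0.652 and 0.699 with DMSO, lower in every treated library.

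Enzymes of retinol handling were mixed, at 11 higher and 3 lower of 26 tested (median 0.18; 5 and 7 under read-sum scaling, 7 and 3 under quantile normalization and 6 and 3 without the culture block). Retsat, a retinol saturase, rose by 1.45 ± 0.18 (range 91.5 to 155 RPKM with 9cisRA and 37.5 to 52.5 with DMSO), and Dhrs9, a retinol dehydrogenase, by 0.82 ± 0.10. Rdh7, another retinol dehydrogenase, was at 9.30, 8.09, 12.8 and 12.7 RPKM with 9cisRA and 21.99, 20.9, 30.0 and 37.6 with DMSO and fell by 1.31 ± 0.24 (adjusted p = 5.75e-04). All treated libraries were below all vehicle libraries. Rbp2, the abundant enterocyte retinol carrier, was at 2894 to 4066 RPKM with 9cisRA and 2222 to 3228 with DMSO, with overlapping groups (0.38 ± 0.11, adjusted p = 0.0144). That call was lost under read-sum scaling, quantile normalization and without the block (adjusted p = 0.376).

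PPAR targets rose nearly as a whole. Of 32 tested, 29 were called higher and 0 lower, 16 of them at least 2-fold, and the median was 1.01. Cpt1a, the gate of fatty acids into mitochondria, was at 155, 155, 154 and 155 RPKM with 9cisRA and 51.5, 59.3, 56.1 and 58.0 with DMSO (1.46 ± 0.050, adjusted p = 1.05e-09). The treated libraries were nearly identical and none came near a vehicle library. Slc25a20, the carnitine carrier of the inner membrane, rose by 1.30 ± 0.052, Hadha of the trifunctional protein by 0.92 ± 0.040 and Creb3l3, a membrane-bound lipid regulator, by 1.07 ± 0.090. Fabp2, the intestinal fatty acid binding protein, was at 1829, 1651, 2137 and 2499 RPKM with 9cisRA and 874, 813, 1085 and 1153 with DMSO (1.04 ± 0.076, adjusted p = 4.83e-07). Both cultures moved alike.

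Most tested genes of fatty acid oxidation were called higher. Of 27 tested genes of mitochondrial oxidation and ketogenesis, 18 were called higher and 3 lower (median 0.48), and of 41 peroxisomal genes 26 and 2 (median 0.33; 22 and 8 under read-sum scaling and 24 and 5 without culture 2). The carnitine importer Slc22a5 rose by 1.21 ± 0.063 and the isomerase Eci2 by 1.21 ± 0.049 (84.1 to 98.7 RPKM with 9cisRA and 38.3 to 40.7 with DMSO). In peroxisomes, the thiolase Acaa1b was at 147, 141, 229 and 202 RPKM with 9cisRA and 37.8, 32.1, 45.02 and 47.1 with DMSO (2.12 ± 0.12, adjusted p = 8.13e-08), with culture 2 higher throughout. Acaa1a rose by 0.98 ± 0.073 and the fatty acid transporter Abcd3 by 0.82 ± 0.051. Acaa1a and Acaa1b are close copies. Few genes of the respiratory chain were called: of 52 subunits, 7 were called higher and 1 lower (median 0.033; 2 and 14 under read-sum scaling, 2 and 13 under quantile normalization, 13 and 0 without culture 1 and 3 and 2 without culture 2). The leading ones were Cox8a (0.47 ± 0.12), Atp5d (0.33 ± 0.083, not called under quantile normalization), Cox6a1 (0.31 ± 0.10) and Ndufs7 (0.29 ± 0.083), the last 2 not called under read-sum scaling.

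The promoters of Fabp1, Rbp2, Plin2 and Fabp6, which code for carriers of lipids or a droplet coat, are shown because repeats of the kind bound by RXR pairs lie in them. Fabp1 and Plin2 were singled out after their values were seen. Fabp1, the liver-type fatty acid binding protein (chromosome 6, 71199827 to 71205023), was at 18618, 16699, 19097 and 22078 RPKM with 9cisRA and 6531, 5931, 8500.1 and 10142 with DMSO (1.32 ± 0.21, adjusted p = 2.04e-04). It had the highest level per length of any gene in the treated libraries and took 0.740% to 0.958% of reads there, against 0.286% to 0.479% with DMSO. As the gene with the highest RPKM in all 8 libraries it has a fold change of 0 under quantile normalization by construction. Plin2, a coat protein of lipid droplets, was at 285 to 302 RPKM with 9cisRA and 130.4 to 148 with DMSO (1.06 ± 0.068). PPAR with RXR binds a direct repeat of AGGTCA spaced by 1 base (DR1, AGGTCANAGGTCA), and FXR with RXR an inverted repeat (IR1, AGGTCANTGACCT). The 250 bases before each RefSeq start were searched on both strands in the RefSeq promoters (GRCm38.p6; some genes have several), allowing 2 mismatches at the 12 defined positions. Of 32851 promoters, 3.236% held such a DR1 and 0.9589% an IR1. In the lists a gene was counted if any of its promoters matched, so counts of genes and shares of promoters are not in the same unit. Among PPAR targets, 4 of the 25 with a promoter sequence held a DR1 (Plin2, Fabp1, Creb3l3 and Cd36), and among FXR and bile acid genes 1 of 13 an IR1 (Fabp6). A DR4 for LXR (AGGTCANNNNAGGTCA; 2.566% of promoters) was in 0 of 9 LXR targets, and a DR5 for RAR (AGGTCANNNNNAGGTCA; 2.329%) in 0 of 8 retinoic acid response genes. Each stretch below has 120 bases, 5′ to 3′ on the strand of the gene, with the match in capitals. The matches in Fabp1, Rbp2 and Plin2 read on the opposite strand. Positions are counted from the RefSeq start, which is not the GENCODE start for these genes: it is 71199879 for Fabp1 and 98490537 for Rbp2, while the GENCODE genes begin upstream, at 71199827 and at 98486115, so that by GENCODE the match lies in the first bases before the Fabp1 start and within the Rbp2 gene. The Fabp1 stretch is chr6:71199758-71199877 (plus strand; 11 of 12 positions matched, at -67 to -55 from the start), the Rbp2 stretch chr9:98490417-98490536 (plus; 10 of 12, -58 to -46), the Plin2 stretch chr4:86670190-86670309 (minus; 10 of 12, -225 to -213) and the Fabp6 stretch chr11:43601693-43601812 (minus; 10 of 12, -222 to -210).
Fabp1: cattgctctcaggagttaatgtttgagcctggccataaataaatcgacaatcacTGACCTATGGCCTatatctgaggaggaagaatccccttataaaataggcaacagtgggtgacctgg
Rbp2: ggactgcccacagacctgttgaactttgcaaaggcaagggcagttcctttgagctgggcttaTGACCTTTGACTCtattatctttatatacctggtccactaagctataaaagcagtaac
Plin2: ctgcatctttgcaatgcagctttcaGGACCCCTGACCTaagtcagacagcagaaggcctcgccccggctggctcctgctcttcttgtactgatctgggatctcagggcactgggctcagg
Fabp6: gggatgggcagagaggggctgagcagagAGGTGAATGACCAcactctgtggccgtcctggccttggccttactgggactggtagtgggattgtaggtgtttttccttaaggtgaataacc

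Among genes of sterol export and fat synthesis more rose than fell, and among those of cholesterol synthesis more fell than rose. Of 13 LXR targets, 10 were called higher and 0 lower (median 0.75), and of 21 genes of fatty acid synthesis and desaturation 12 and 2 (median 0.29). Abca1, the pump that loads cholesterol onto lipoproteins, was at 3.31, 3.15, 3.05 and 2.82 RPKM with 9cisRA and 0.270, 0.427, 0.547 and 0.572 with DMSO (1.92 ± 0.11, adjusted p = 8.13e-08). All treated libraries were well above all vehicle libraries, and the ratio of the means was 6.79. Abcg5, which returns sterols to the lumen, rose by 1.28 ± 0.084 (132 to 169 RPKM with 9cisRA and 53.5 to 71.0 with DMSO), and Srebf1, the regulator of lipogenesis, by 1.47 ± 0.11. The desaturase Scd1 was at 543, 481, 694 and 761 RPKM with 9cisRA and 131, 141, 164 and 184 with DMSO (1.98 ± 0.10, adjusted p = 1.39e-08) and its relative Scd2 rose by 0.75 ± 0.048. Me1, which supplies NADPH for synthesis, rose by 1.12 ± 0.054. Of 27 genes of cholesterol synthesis, 5 were called higher and 9 lower (median -0.042; 2 and 14 under read-sum scaling and 2 and 11 under quantile normalization). Idi1 fell by 0.58 ± 0.091, Msmo1 by 0.38 ± 0.064 and Fdft1 by 0.27 ± 0.043, while Tm7sf2 rose by 0.41 ± 0.062. For Idi1 the library of culture 2, duplicate 1, was the lowest (45.1 RPKM against 55.9 to 57.6 in the other treated libraries).

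Of 23 tested genes that rebuild and store triglyceride, 17 were called higher and 0 lower (median 0.41; 13 and 1 under read-sum scaling), and 6 were not called. Hilpda, an inhibitor of droplet lipolysis, was at 58.6, 58.9, 47.4 and 43.0 RPKM with 9cisRA and 17.1, 15.0, 14.6 and 14.0 with DMSO (1.73 ± 0.10, adjusted p = 6.08e-08). Here culture 1 was higher in both groups. Cidec, a droplet fusion protein, rose by 1.56 ± 0.089, the acyl-CoA synthetase Acsl3 by 1.42 ± 0.087, the acyltransferase Agpat2 by 1.18 ± 0.071 and the lipase Lipe by 0.72 ± 0.12. Of 14 apolipoprotein and chylomicron genes, 9 were called higher and 0 lower (median 0.37; 4 and 0 without the culture block). Apobec1, the editor of the apolipoprotein B transcript, was at 63.3, 59.9, 63.9 and 65.2 RPKM with 9cisRA and 30.2, 31.0, 33.7 and 30.6 with DMSO (0.996 ± 0.053, adjusted p = 3.65e-08), and Apoc2, the activator of lipoprotein lipase, rose by 1.202 ± 0.15. Apoa1 was at 817 to 1364 RPKM with 9cisRA and 557 to 1061 with DMSO and did not pass the test (0.50 ± 0.29, adjusted p = 0.177). Apoa4 (0.90 ± 0.23) and Mttp, the lipid loader of chylomicrons (0.61 ± 0.10), passed it only with the culture as a block (adjusted p without it 0.0609 and 0.0881). Sar1b, which carries chylomicrons out of the endoplasmic reticulum, rose by 0.30 ± 0.056.

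Most bile acid genes rose. Of 16 tested, 13 were called higher and 1 lower (median 0.62). Fgf15 was at 40.6, 41.5, 43.2 and 39.7 RPKM with 9cisRA and 5.77, 4.94, 4.38 and 4.42 with DMSO (adjusted p = 1.39e-09). Both cultures gave nearly the same treated level. Nr0b2, the FXR-induced repressor SHP, was at 4.02, 3.79, 5.34 and 4.41 RPKM with 9cisRA and 0.955, 0.549, 0.887 and 0.858 with DMSO (1.90 ± 0.13, adjusted p = 2.55e-07). Slc51a and Slc51b, the subunits of the bile acid exporter, rose by 0.98 ± 0.089 and 2.16 ± 0.24 (55.0 to 88.9 RPKM with 9cisRA and 13.2 to 17.7 with DMSO), and the basolateral pump Abcc3 by 0.52 ± 0.057. Fabp6, the ileal bile acid binding protein, was close to the detection limit, at 0.148, 0.172, 0.392 and 0.426 RPKM with 9cisRA and 0.155, 0.0767, 0 and 0 with DMSO. The groups overlapped and the difference did not pass the test (0.48 ± 0.28, adjusted p = 0.172).

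Among regional and zonal genes more were called higher than lower. Their lower calls were near or below the 23.5% of all genes. Of 17 duodenal and jejunal genes, 9 were called higher and 3 lower (7 and 5 under read-sum scaling), and of 17 ileal genes 8 and 4 (8 and 1 without the culture block). The folate importer Slc46a1 rose by 0.81 ± 0.089 and the iron exporter Slc40a1 by 0.79 ± 0.081. Of 17 villus tip genes, 10 were called higher and 3 lower (6 and 2 without the culture block), and of 12 villus base genes 6 and 1 (3 and 2 under read-sum scaling, 3 and 1 under quantile normalization and 3 and 1 without the culture block). Of the tip genes, Ada, the adenosine deaminase, rose by 0.55 ± 0.074, and Ybx3 fell by 0.34 ± 0.053. At the base, the lectin gene Reg1 fell by 0.85 ± 0.16 (112 to 155 RPKM with 9cisRA and 206 to 341 with DMSO), while Dmbt1 rose by 0.64 ± 0.10 and Lypd8, a protein that keeps flagellated bacteria away, by 0.51 ± 0.10 (not called under quantile normalization).

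Genes of the digestive surface changed in both directions. Of 24 genes that build the microvillus, 18 were called higher and 1 lower (median 0.36), while of 21 brush border enzymes 6 were called higher and 9 lower (median -0.31; 3 and 3 without the culture block, and 5 and 13 under read-sum scaling). Vil1, the bundler of the microvillus core, was at 631, 668, 635 and 646 RPKM with 9cisRA and 476, 474, 493 and 507 with DMSO (0.40 ± 0.048, adjusted p = 2.49e-05). Cdhr2, a cadherin that links microvillus tips, rose by 0.63 ± 0.062, its motor Myo7b by 0.54 ± 0.060, Baiap2l1 by 0.55 ± 0.058 and Tmigd1 by 1.26 ± 0.10. Alpi, intestinal alkaline phosphatase, was at 885, 895, 974 and 890.4 RPKM with 9cisRA and 554, 569, 579.7 and 583 with DMSO (0.67 ± 0.11, adjusted p = 2.22e-04). In contrast, the ectonucleotidase Enpp3 fell by 0.97 ± 0.11 and Mme, given above, fell too. Sis, sucrase-isomaltase, was at 205, 166, 227 and 269.5 RPKM with 9cisRA and 292, 288, 409.8 and 514 with DMSO (-0.77 ± 0.18, adjusted p = 0.00413). Every treated library was below every vehicle library, but the call was lost without the block (adjusted p = 0.198). Of 41 enterocyte markers, 17 were called higher and 9 lower (12 and 14 under read-sum scaling and 10 and 1 without the culture block). Lgals3 and Krt20, of mature surface cells, rose by 0.74 ± 0.086 and 0.55 ± 0.088.

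Of 14 genes of sugar handling and gluconeogenesis, 1 was called higher and 7 lower (median -0.32; 1 and 3 without the culture block). Fbp1, fructose bisphosphatase, was at 1.83, 2.16, 3.92 and 2.62 RPKM with 9cisRA and 5.13, 4.81, 7.05 and 8.50 with DMSO and fell by 1.14 ± 0.29 (adjusted p = 0.00631). The mitochondrial Pck2 fell by 0.35 ± 0.083, and the glycogen synthase Gys1 rose by 0.30 ± 0.056. Of 15 genes of arginine and citrulline metabolism, 3 were called higher and 7 lower (3 and 4 without the culture block). Oat, which makes the citrulline precursor of gut cells, was at 102, 94.3, 100.4 and 116 RPKM with 9cisRA and 210.1, 202, 240.2 and 276 with DMSO and fell by 1.16 ± 0.10 (adjusted p = 1.31e-06). All treated libraries were below all vehicle libraries. Glutamine synthetase Glul rose by 0.49 ± 0.054. Of 28 glycolysis and hypoxia genes, 8 were called higher and 3 lower, with the glucose carrier Slc2a1 up by 0.80 ± 0.067, Pfkfb3 by 0.60 ± 0.078, Hk1 by 0.58 ± 0.070 and Vegfa by 0.44 ± 0.076.

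Of 28 ion and anion transporters, 15 were called higher and 5 lower (median 0.39). The sodium-proton exchangers Slc9a2 and Slc9a3 rose by 0.91 ± 0.068 and 1.01 ± 0.12 (15.2 to 21.1 RPKM with 9cisRA and 7.37 to 11.4 with DMSO). Of 17 calcium, iron and zinc genes, 8 were called higher and 4 lower. S100g, the vitamin D-dependent calcium buffer, was at 252, 189, 316 and 259 RPKM with 9cisRA and 94.0, 88.0, 70.9 and 80.8 with DMSO (1.58 ± 0.14, adjusted p = 2.19e-06), with a larger rise in culture 2 (1.26 in culture 1 and 1.91 in culture 2). Among 8 VDR targets, 4 were called higher and 2 lower. The calcium pump Atp2b1 rose by 0.57 ± 0.078, Cdkn1a, a cell cycle inhibitor, by 0.30 ± 0.067, and the pore-forming claudin Cldn2 by 0.25 ± 0.044. The ferritin chains Fth1 and Ftl1 rose by 0.50 ± 0.057 and 0.53 ± 0.065. Of 17 amino acid and peptide transporters, 6 were called higher and 6 lower (3 and 7 under read-sum scaling and 5 and 3 without the culture block). Slc1a5, a glutamine carrier, fell by 0.32 ± 0.047, and the creatine carrier Slc6a8 rose by 0.44 ± 0.074.

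Detoxifying enzymes included some of the larger changes in both directions. Of 48 genes of phase I and of PXR and CAR, 16 were called higher and 13 lower (median -0.10; 13 and 21 under read-sum scaling, 13 and 18 under quantile normalization and 12 and 13 without the culture block), against 24.4% and 23.5% of all genes. Akr1b8, an aldose reductase family member, was at 952, 973, 879 and 917 RPKM with 9cisRA and 261, 258, 244 and 240.4 with DMSO (1.89 ± 0.067, adjusted p = 1.39e-09). The groups were far apart, and the ratio of the means was 3.71. Por, the electron donor of all microsomal P450 enzymes, rose by 1.38 ± 0.063 (412 to 486 RPKM with 9cisRA and 160.1 to 182 with DMSO), and the fatty aldehyde dehydrogenase Aldh3a2 by 1.47 ± 0.072. Cyp2c29, Akr1c14 and Maob, given above, belong to the same list and fell. Of 38 phase II enzymes, 18 were called higher and 7 lower (12 and 2 without the culture block), with the glutathione transferases Gsta1, Gsta2 and Gsta4 up by 0.71 ± 0.066, 0.71 ± 0.069 and 0.60 ± 0.066. Gsta1 and Gsta2 are near-identical, which makes their split uncertain. Of 19 NRF2 antioxidant genes, 16 were called higher and 0 lower (median 0.35). Srxn1, sulfiredoxin, was at 165, 156, 157 and 159 RPKM with 9cisRA and 86.8, 98.7, 89.5 and 97.9 with DMSO (0.77 ± 0.044, adjusted p = 6.14e-08), and Nqo1, Osgin1 and Cbr3 rose by 0.35 ± 0.053, 0.79 ± 0.071 and 0.84 ± 0.079. Of 7 targets of the aryl hydrocarbon receptor, 3 were called higher and 1 lower. Aldh3a1 rose by 2.02 ± 0.11 (5.04 to 6.66 RPKM with 9cisRA and 0.801 to 1.23 with DMSO), while Cyp1a1, the best-known target of the receptor, lay near the detection limit in all 8 libraries (0.125 to 0.311 RPKM with 9cisRA and 0.184 to 0.533 with DMSO). Cyp1a1 was the 1 called lower (-0.30, adjusted p = 0.0385), a call lost under 10 alternatives, the fit without the culture block among them.

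**Figure D3:**
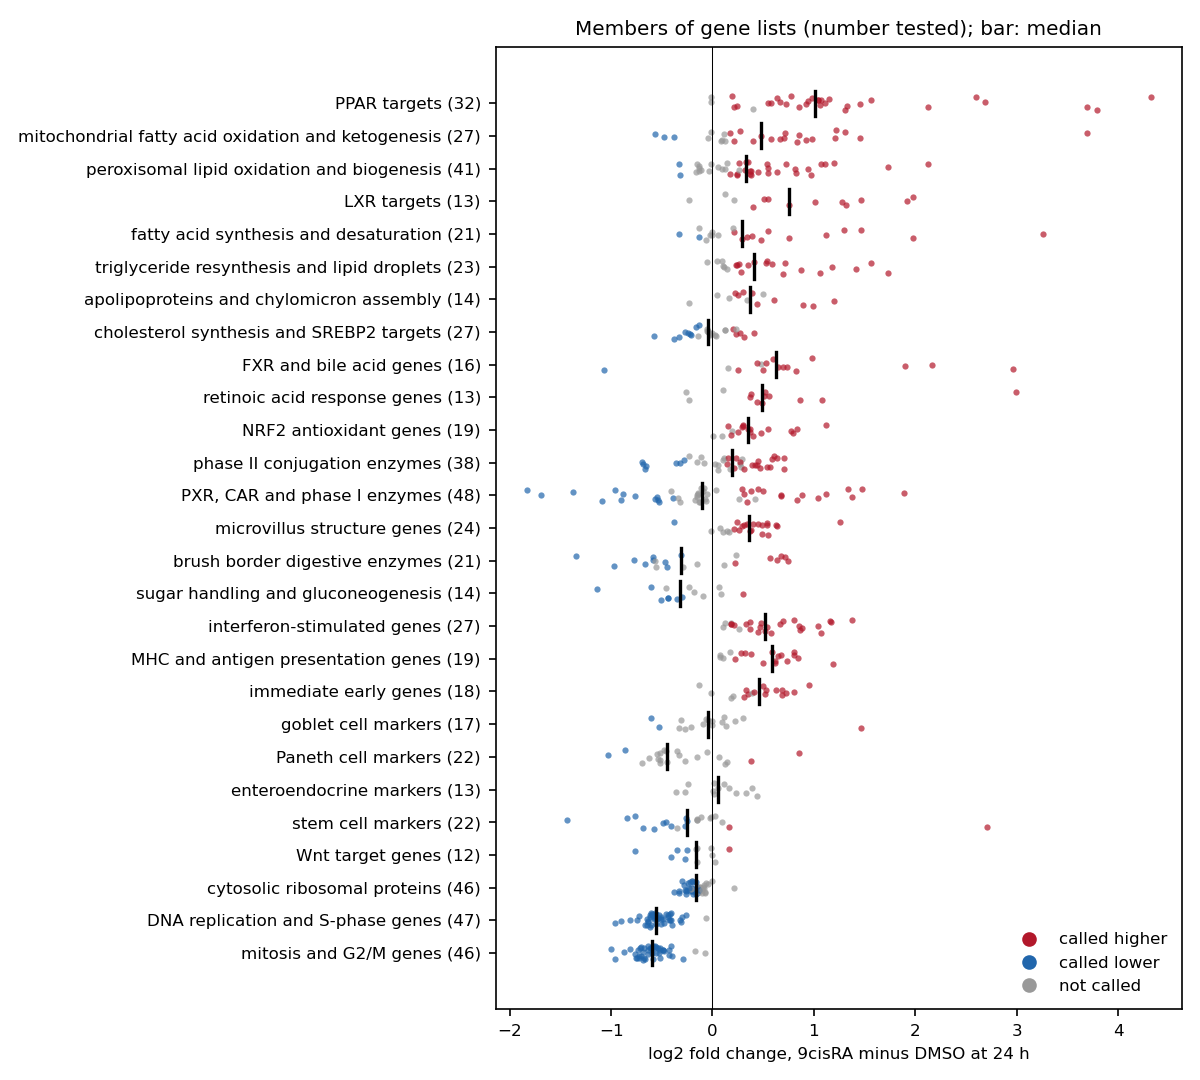
Log2 fold change of 9cisRA against DMSO at 24 h (x axis) for the tested members of 27 gene lists (y axis, number tested in brackets); red, called higher; blue, called lower; grey, not called; black bar, median of the list. PPAR targets have a median of 1.01, and both cell cycle lists, with medians of -0.56 and -0.60, lie almost wholly to the left of 0.

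Genes of dividing cells fell together. Of 47 genes of DNA replication and S phase, 0 were called higher and 46 lower (median -0.56), and of 46 genes of mitosis 0 were called higher and 44 lower (median -0.60). The helicase subunit Mcm4 was at 25.3, 24.7, 22.2 and 24.7 RPKM with 9cisRA and 36.9, 38.7, 37.5 and 36.2 with DMSO (-0.61 ± 0.046, adjusted p = 6.44e-07). Ckap2, a spindle protein, was at 11.02, 11.2, 8.40 and 10.7 RPKM with 9cisRA and 21.8, 19.6, 20.6 and 20.0 with DMSO and fell by 0.96 ± 0.059 (adjusted p = 1.22e-07), the most of those named. Mcm6, Rrm1, Gins1, Kif4, Tpx2, Birc5 and Mki67 had log2 fold changes of -0.64, -0.62, -0.67, -0.61, -0.67, -0.69 and -0.74. Mki67, the usual marker of cycling cells, was still at 19.8 to 26.6 RPKM with 9cisRA and 37.3 to 41.5 with DMSO. Culture 2, duplicate 1, was often the lowest treated library, and without it the counts were 0 and 46, and 0 and 44.

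Among lists of growth and protein synthesis, that of ribosomal proteins had the most lower calls, and the others had calls in both directions. Myc fell by 0.35 ± 0.065 and Mxd1, its antagonist, rose by 0.53 ± 0.047 (33.8 to 35.2 RPKM with 9cisRA and 21.8 to 26.2 with DMSO). Of 20 genes of this network, 3 were called higher and 8 lower (median -0.079), among the lower ones nucleophosmin Npm1 (-0.78), nucleolin Ncl (-0.58), Nop56 (-0.48) and the polyamine enzyme Odc1 (-0.37). Of 46 ribosomal protein genes, 0 were called higher and 28 lower (median -0.16; 0 and 43 under read-sum scaling, 0 and 44 under quantile normalization and 1 and 11 without culture 1). Rps20 was at 97.1, 96.3, 91.2 and 94.96 RPKM with 9cisRA and 125, 121, 121 and 112 with DMSO (-0.33 ± 0.053), and Rpl5, Rps25 and Rps4x fell by 0.33 ± 0.057, 0.26 ± 0.055 and 0.25 ± 0.050. Of 24 cell cycle inhibitors and p53 targets, 4 were called higher and 3 lower (median -0.037; 4 and 13 under read-sum scaling and 4 and 5 without culture 1), a smaller share than of all genes. The inhibitor Cdkn2b rose by 0.65 ± 0.10 and Gdf15 by 0.75 ± 0.12, and the cyclin Ccnd2, a member of the same list, fell by 0.50 ± 0.039 (125 to 144 RPKM with 9cisRA and 168 to 211 with DMSO). Of 23 integrated stress response genes, 4 were called higher and 10 lower, with Psat1, Mthfd2 and Cth, of serine, folate and cysteine metabolism, down by 0.56 ± 0.053, 0.51 ± 0.050 and 0.60 ± 0.063. Of 24 chaperones of the endoplasmic reticulum, 3 were called higher and 4 lower (median -0.021; 0 and 14 under read-sum scaling and 2 and 9 under quantile normalization). Hsp90b1 fell by 0.30 ± 0.074, with culture 2, duplicate 1, at 220 RPKM against 288 to 300 in the other treated libraries.

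Of 22 tested stem cell markers, 2 were called higher and 11 lower (median -0.26). Olfm4 was at 8.91, 6.96, 7.29 and 7.56 RPKM with 9cisRA and 17.7, 23.4, 19.8 and 26.2 with DMSO (adjusted p = 6.59e-04). Ascl2, a stem cell transcription factor, fell by 0.76 ± 0.15, Cdca7 by 0.68 ± 0.081, the chloride importer Slc12a2 by 0.58 ± 0.094 and the Wnt feedback gene Axin2 by 0.41 ± 0.068. Gkn3, 1 of the 2 members called higher, moved the opposite way from Olfm4 within the same list. Lgr5, the receptor that defines crypt base stem cells, was below the filter and was not tested. Its levels were 0.350, 0.312, 0.343 and 0.478 RPKM with 9cisRA and 0.734, 0.803, 1.05 and 1.17 with DMSO, with every treated library below every vehicle library. Of 12 Wnt targets, 1 was called higher and 5 lower (0 and 8 under read-sum scaling). Of 14 Notch and secretory fate genes, 1 was called higher and 4 lower (0 and 6 under read-sum scaling), near the 23.5% of all genes called lower, with the Notch target Nrarp down by 0.52 ± 0.079. Among 23 intestinal identity factors, 10 were called higher and 1 lower (6 and 4 under read-sum scaling), with Cdx2 up by 0.37 ± 0.063 and Elf3 by 0.46 ± 0.052.

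Of 17 goblet cell markers, 1 was called higher and 2 lower (1 and 7 under read-sum scaling, 3 and 2 without culture 1 and 1 and 5 without culture 2). Muc2, the main mucin, was at 2.58, 2.64, 3.14 and 2.36 RPKM with 9cisRA and 3.94, 3.84, 2.69 and 3.01 with DMSO and did not pass the test (-0.27 ± 0.11, 95% interval -0.52 to -0.027). Clca1, a secreted goblet cell protease, was the exception at 89.8, 70.1, 73.8 and 71.9 RPKM with 9cisRA and 29.0, 29.1, 24.2 and 27.1 with DMSO (1.46 ± 0.26, adjusted p = 5.03e-04). Of 22 Paneth cell markers, 2 were called higher and 2 lower (median -0.45; 2 and 9 under read-sum scaling and 3 and 5 without culture 1). Their SEs were large: Lyz1, lysozyme, was at 22.3, 19.5, 21.3 and 21.8 RPKM with 9cisRA and 29.1, 29.3, 29.1 and 31.7 with DMSO, every treated library lower, and yet missed the threshold (-0.48 ± 0.20, adjusted p = 0.0665). The matrix protease Mmp7 rose by 0.86 ± 0.14 (adjusted p = 0.242 without the block), and the colipase Clps fell by 1.03 ± 0.23. Of 13 enteroendocrine markers, 0 were called higher and 0 lower (median 0.054). Chga, Gcg, Cck and Tac1 had differences of 0.23 ± 0.12, 0.33 ± 0.21, 0.44 ± 0.18 and -0.27 ± 0.17. Of 5 tuft cell markers, 2 were called higher and 0 lower (Ptpn18 0.42 and Ltc4s 0.64). Of 5 pancreatic enzyme genes, 0 were called higher and 2 lower, Ctrb1 and Clps. Pnliprp2, a lipase of the same list, was at 39.5 to 46.4 RPKM with 9cisRA and 52.2 to 66.2 with DMSO, not called (adjusted p = 0.178).

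Most interferon-stimulated and antigen presentation genes rose. Of 27 interferon-stimulated genes, 23 were called higher and 0 lower (median 0.52), and of 19 MHC and antigen presentation genes 15 and 0 (median 0.59). Irf1, a transcription factor of this response, was at 36.8, 36.2, 37.7 and 37.3 RPKM with 9cisRA and 19.3, 19.5, 18.8 and 21.7 with DMSO (0.89 ± 0.049, adjusted p = 5.18e-08). Treated and vehicle libraries were well apart, with little spread in either. Ifit1bl1, Oasl1 and Oasl2 rose by 1.37 ± 0.11, 1.16 ± 0.075 and 1.17 ± 0.10, H2-K1 and H2-D1, class I genes with close copies, by 0.62 ± 0.053 and 0.62 ± 0.051, the peptide loader Tapbp by 0.81 ± 0.057 and the immunoproteasome subunit Psmb10 by 0.84 ± 0.070. The 5 immune cell markers listed summed to 10.99 to 12.1 RPKM with 9cisRA, and 3 of them were called higher, Cd68 by 0.68 ± 0.13 among them. Their part in these lists was not tested. Duox2 and its partner Duoxa2, which make hydrogen peroxide at the surface, rose by 1.18 ± 0.11 and 1.08 ± 0.15, while the chemokine Ccl28 fell by 0.87 ± 0.088. Their list, of dual oxidases and antimicrobial defence, had 3 higher and 2 lower of 15 (median -0.050; 2 and 4 under read-sum scaling and 2 and 4 without culture 1). Of 18 immediate early genes, 13 were called higher and 0 lower (median 0.46), with the phosphatases Dusp5 and Dusp6 up by 0.96 ± 0.075 and 0.52 ± 0.052 and Klf10 by 0.52 ± 0.057. Fos rose by 0.68 ± 0.082 (adjusted p = 0.0562 without the block).

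Junction, squamous and fetal-like genes were affected member by member. Of 17 claudin and tight junction genes, 10 were called higher and 1 lower, with Cldn4 at 266, 272, 340.4 and 262 RPKM with 9cisRA and 149, 146, 163 and 162 with DMSO (0.87 ± 0.067, adjusted p = 8.13e-07) and Cldn3, Cldn23 and Tjp3 up by 0.91 ± 0.15, 0.89 ± 0.075 and 0.44 ± 0.066. Of 24 YAP target and fetal-like genes, 12 were called higher and 2 lower. The interleukin antagonist Il1rn rose by 0.999 ± 0.071, the alarmin Il33 by 1.08 ± 0.11 and the urokinase receptor Plaur by 0.83 ± 0.071. Of 15 squamous and cornified envelope genes, 5 were called higher and 5 lower. Sprr1a, a cornified envelope precursor with close copies, was at 914, 886, 1100.1 and 948 RPKM with 9cisRA and 200.4, 229, 271 and 263 with DMSO (2.00 ± 0.12, adjusted p = 1.42e-07), while the plakophilin Pkp1 fell by 1.19 ± 0.077, the transglutaminase Tgm1 by 1.05 ± 0.10 and Dsg3, given above, to 0.377 to 1.01 RPKM. Of 7 stomach genes, 4 were called higher and 1 lower. Psca rose by 1.26 ± 0.10 and Vsig1 fell by 0.72 ± 0.066. Of 7 simple epithelial keratins, 5 were called higher and 1 lower (1 and 1 under quantile normalization). Krt7 (0.44), Krt8 (0.38) and Krt19 (0.31) were higher as deposited. Under quantile normalization their changes were -0.0067, -0.035 and 0.00. Krt19, the highest gene next to Fabp1, gets 0.00 there from its rank, so its value is no test of a rise.

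The isomers were then compared directly at the same dose and time, the only pair of compounds compared here. atRA differs from 9cisRA in the geometry of its side chain. Of 11361 genes, 34 were higher (0.299%) and 19 lower (0.167%) with 9cisRA than with atRA, and 1359 had an unadjusted p below 0.05. Under read-sum scaling the split was 23 higher and 28 lower. Past 2-fold were 2 genes in each direction. The median 95% interval, which is not adjusted for the number of genes, reached 0.156 to either side. A call at the adjusted threshold needs a larger difference than that for a typical gene. Genes not called may thus differ by more than 0.156. The count depended on the treatment of the cultures, at 10 without the culture block and 352 when only these 2 groups were fitted.

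Some genes of lipid handling were higher with 9cisRA. Abca1 was at 3.31, 3.15, 3.05 and 2.82 RPKM with 9cisRA and 0.932, 1.02, 0.835 and 0.770 with atRA, a difference of 1.37 ± 0.11 (adjusted p = 9.11e-05). The groups did not overlap. Apoa4 was at 967 to 1489 RPKM against 389 to 666 (1.25 ± 0.23, adjusted p = 0.0357), a call lost under 5 alternatives, quantile normalization among them. Of 32 PPAR targets 6 were higher and 0 lower, Pdk4 (0.96 ± 0.075), Cpt1a (0.45 ± 0.050), Fabp2 (0.55 ± 0.076), Acot1 (0.55 ± 0.10), Cidec (0.45 ± 0.089) and Hadha (0.20 ± 0.040). Of 13 LXR targets 3 were higher, Abca1, Srebf1 (0.75 ± 0.11) and Scd1 (0.66 ± 0.10), and of 21 genes of fatty acid synthesis 3 (isomer median 0.00056). Acacb was higher by 0.84 ± 0.10. Eci2 was higher by 0.36 ± 0.049. Of 41 peroxisomal genes 2 were higher, Acaa1a by 0.40 ± 0.073 and Abcd3 by 0.31 ± 0.051, while 5 of 27 genes of cholesterol synthesis were lower, Fdft1 at -0.34 ± 0.043 among them.

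Of 16 FXR and bile acid genes, 0 were higher and 3 lower with 9cisRA than with atRA (median 0.012), and these were Fabp6, Nr0b2 and Slc51a. Fabp6 was at 0.148, 0.172, 0.392 and 0.426 RPKM with 9cisRA and 5.26, 4.46, 11.4 and 9.93 with atRA, a difference of -3.32 ± 0.28 (adjusted p = 9.11e-05), the largest difference between the isomers. The 9cisRA values of Fabp6 rest on 2 to 5 recovered reads per library, so its fold change is imprecise. Nr0b2 differed by -0.67 ± 0.13 and Slc51a by -0.67 ± 0.089. Slc51b, at -1.10 ± 0.24, and Fgf15, at -0.44 ± 0.11, missed the threshold (adjusted p = 0.0675 and 0.124). Cyp26b1 was at 4.70, 4.86, 7.30 and 6.21 RPKM with 9cisRA and 11.1, 10.3, 13.2 and 13.1 with atRA, a difference of -1.002 ± 0.12 (adjusted p = 0.00261; 0.0643 with a pseudocount of 0.1).

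Other genes were not called between the isomers. Dhrs3 had -0.025 ± 0.10 (95% interval -0.23 to 0.18), Isx -0.24 to 0.21, Mki67 -0.24 to 0.046 and Gsta1 -0.14 to 0.14 as intervals. For Apoa1, at 0.70 ± 0.29, the interval of 0.073 to 1.33 left 0 out, but limma's adjusted p over all genes was 0.362. Olfm4 was too variable to place (interval -0.82 to 0.32). Of the 47 and 46 members of the cell cycle lists 0 were called between the isomers. As only 0.299% and 0.167% of all genes were called, that does not show the isomers to be alike there. The list medians of the isomer difference were -0.071 and -0.087, against -0.0015 for all genes.

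**Figure D4:**
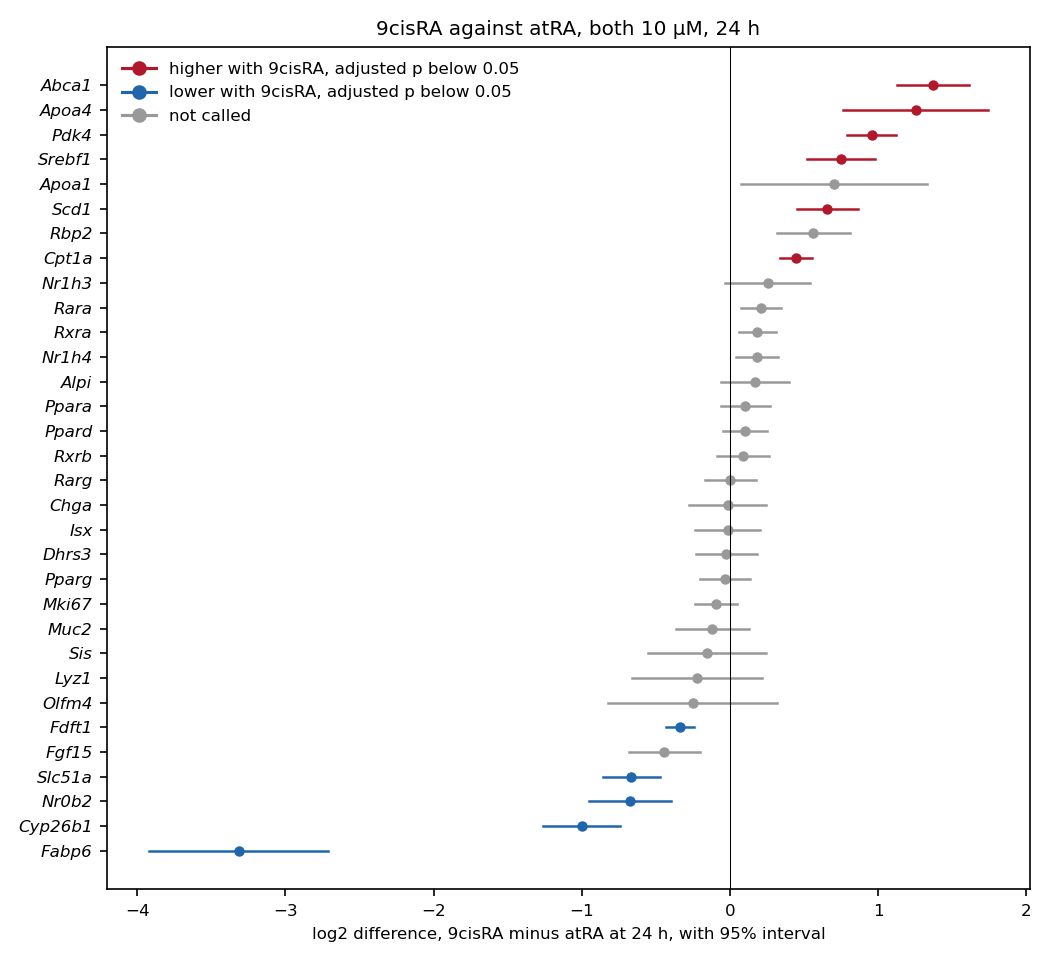
Difference between 9cisRA and atRA at 24 h (x axis, log2, points; bars, 95% interval) for 32 genes (y axis): the 4 past 2-fold, leading lipid, bile acid and sterol genes, receptors and cell type markers; red and blue, called higher and lower with 9cisRA; grey, not called. Fabp6 stands alone at -3.32, and Abca1 is highest at 1.37.

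The effect of 9cisRA at 24 h was more positive than at 6 h for 1142 genes (10.1%) and more negative for 898 (7.90%), each effect being taken against DMSO of its own time. Cyp4a10 was at 0.170, 0.115, 0.270 and 0.329 RPKM with 9cisRA at 6 h and 0, 0.0154, 0.167 and 0.0144 with DMSO. The effect was 0.39 ± 0.25 at 6 h against 3.79 ± 0.25 at 24 h, a change of 3.40 ± 0.35 (adjusted p = 1.36e-04). Cyp4a32, its close copy, changed by 2.21 ± 0.29. For Cyp26b1 the effect grew from 0.39 ± 0.12 to 2.99 ± 0.12 (change 2.60 ± 0.17, adjusted p = 7.08e-06), though voom on the recovered reads did not call it (adjusted p = 0.0533). Acacb had already risen at 6 h, by 1.33 ± 0.10, and gained 1.94 ± 0.14 more. Ly6g, a surface protein of the Ly6 family, gained 1.59 ± 0.26.

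Several genes were lower at 24 h against a vehicle level that was itself higher than at 6 h, a difference between times that was not tested. Ctrb1 was at 0.745, 0.524, 1.10 and 0.360 RPKM with 9cisRA and 0.643, 1.39, 0.406 and 0.505 with DMSO at 6 h, and both were near the treated level at 24 h. The vehicle libraries at 24 h lay above all others, for a change of effect of -2.13 ± 0.35 (adjusted p = 0.00178). Cyp2c29 (34.5 to 51.9 RPKM with DMSO at 6 h, 149 to 172 at 24 h, 41.1 to 59.0 with 9cisRA at 24 h) had a change of -1.88 ± 0.23, Akr1c14 of -1.64 ± 0.19 and Mup20 of -1.32 ± 0.25. Reg1 had a change of effect of the same sign (-1.27 ± 0.22). Snord34, a small nucleolar RNA, had -1.27 ± 0.40 (adjusted p = 0.0450), a call lost under 15 alternatives. For a selection of the lists, the counts of changes with time follow, against 10.1% higher and 7.90% lower of all genes. They were 21 higher and 0 lower of 32 PPAR targets, 15 and 2 of 41 peroxisomal genes and 16 and 0 of 24 microvillus genes. For S phase they were 0 and 39 of 47, and for mitosis 0 and 42 of 46. These list counts were not examined under other scalings. The effect on Dhrs3 shrank by 0.53 ± 0.13, from 1.04 ± 0.10 at 6 h, and for Fabp1, Hilpda, Acsl3 and Gkn3 the changes were 0.086 ± 0.29, 0.31 ± 0.14, 0.11 ± 0.12 and 0.10 ± 0.27, none of them called. Over all genes, the counts under read-sum scaling were 557 higher and 2216 lower, and without the culture block 1073 genes were called in all.

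**Figure D5:**
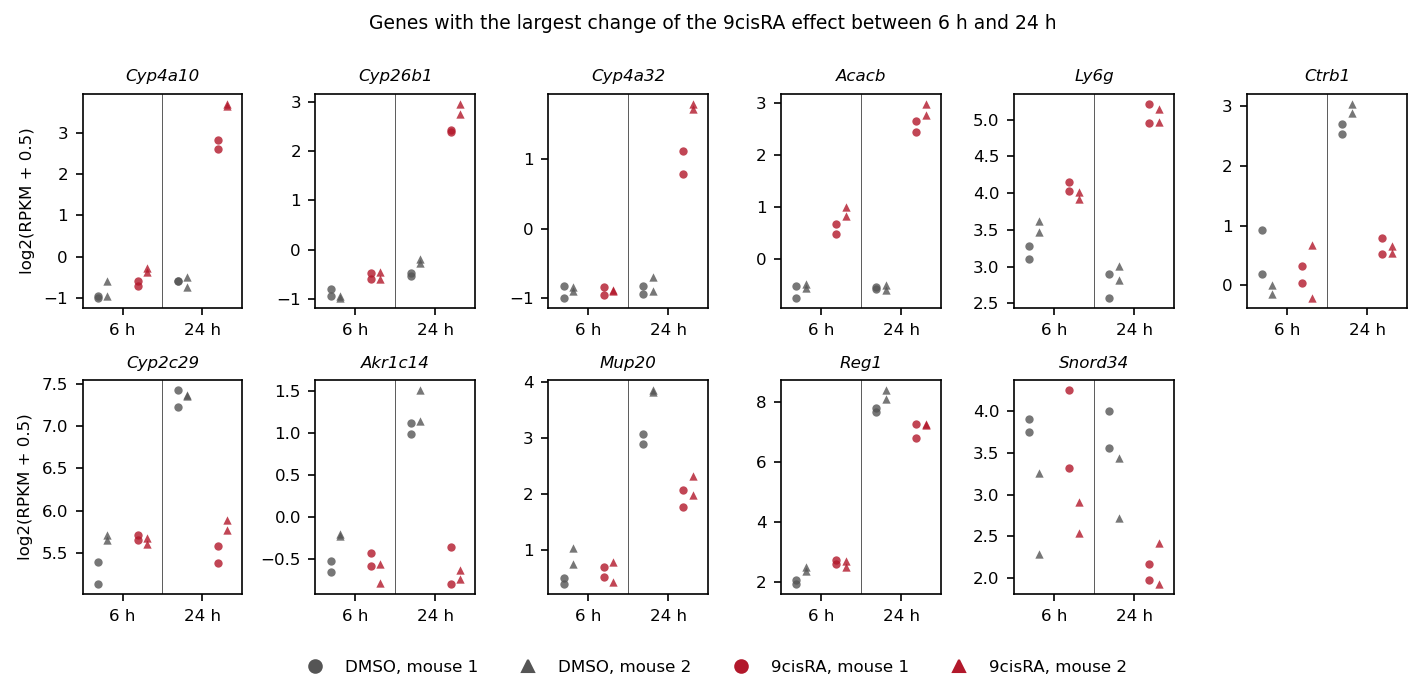
Levels (y axis, log2(RPKM + 0.5)) with DMSO (grey) and 9cisRA (red) at 6 h and 24 h (x axis) of 11 of the 12 genes with the largest change of effect; circles, culture 1; triangles, culture 2. In Cyp4a10 only the treated libraries at 24 h stand above the rest, and in Ctrb1 only the vehicle libraries at 24 h do.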

How the data were processed

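TruSeq mRNA libraries (per the labels' protocols) of 9 groups with 4 libraries each were deposited by the authors as 1 table of RPKM values for 12652 genes. Tools listed per the submitters' processing notes are bcl2fastq 2.17 and STAR 2.5.2b, with mm10 as the genome build. The counting tool and whether it used strand are not given in the sources used here, so reads of overlapping and antisense genes cannot be told apart. Whole reads were recovered from the RPKM values of 100% of genes (tolerance 0.05 reads), and by these values the library divisor did not follow the sum of reads. Rescaling by median-of-ratios factors moved the median of all genes from -0.0017 to 0.0082, so the divisor was not identical to these either. How it was computed is not known here. Groups came from the sample titles.

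The filter of 1 RPKM or more, in any 4 of 36 libraries, left 11361 genes for testing. On log2(RPKM + 0.5), duplicates were averaged to 18 values (2 cultures in 9 groups), and 1 limma model (limma 3.58.1, R 4.3.3) with a mean per group, the culture as a block and a trended variance prior was fitted (8 residual and 5.01 prior degrees of freedom). Tests were two-sided, adjusted by Benjamini-Hochberg over all tested genes, with calls below 0.05 and 95% intervals. The culture is a block because the labels name the mouse. Differences between cultures correlated at 0.450 between the 2 groups. The fit was also run on simulated data, whose outcome is not given here and lends it no support. With 2 cultures per group, p-values rest on the spread pooled over groups.

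Named genes are the 12 highest and 12 lowest at least 2-fold changes (6 and 6 for other comparisons) with the same sign in both cultures, up to 4 genes of smallest p per list, and a panel of receptors and markers. Some genes the rule selects are not reported here. The 61 gene lists and all choices were made with earlier results of these data known. Alternatives changed the pseudocount, filter, scaling, block, use of duplicates, variance prior, groups fitted, test (voom on recovered reads) and thresholds, and left out each library and culture. Positions are those of GENCODE M21 (GRCm38) by Entrez identifier, and promoters those of RefSeq (GRCm38.p6).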

Additional observations from a re-analysis of the deposited data

Results flagged for a closer look

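In the 4 libraries of a group, a value was singled out where its gap to the nearest other passed Dixon's 95% critical value as a share of the range, which chance gives in about 1 of 20 groups; 27 of 482 groups checked had one. Of these, 11 were in the same library, culture 2 duplicate 1 with 9cisRA. It was low for Idi1 (45.1 RPKM), Slc12a2 (28.1), Ncl (108.9), Hsp90b1 (219.5) and Cpt1a (153.5, against 155.1 to 155.3), and high for Alpi (974), Pfkfb3 (8.66), Slc46a1 (38.9), Cldn4 (340.4), Dusp5 (39.0) and Acta2 (1.74).

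With 9cisRA, the other single values were Cyp1a1 at 0.311 RPKM in culture 1, duplicate 1, Reg1 at 112.2 in its duplicate 2, and Defa22 at 1.04 and Duox2 at 4.33 in culture 2, duplicate 2. With DMSO, culture 1 duplicate 1 was high for Cdca7 (29.6 RPKM), Ascl2 (4.41) and Npm1 (385.3). Its duplicate 2 was low for Akr1b10 (14.3) and high for Fth1 (1435), Dusp6 (25.9) and Vim (1.75). In culture 2, duplicate 1 was high for Gkn3 (5.07), and duplicate 2 for Defa22 (7.18), Cck (3.61), Gcg (3.86) and Lyz1 (31.7). The calls of Defa22, Cyp1a1 and Vim were each lost under 8 or more alternatives.

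The effect of 9cisRA differed between 6 h and 24 h in a test of the difference for the 11 genes given here. The effect at 24 h minus that at 6 h was 3.40 for Cyp4a10, 2.60 for Cyp26b1, 2.21 for Cyp4a32, 1.94 for Acacb and 1.59 for Ly6g. It was -2.13 for Ctrb1, -1.88 for Cyp2c29, -1.64 for Akr1c14, -1.32 for Mup20, -1.27 for Reg1 and -1.27 for Snord34.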

How the results depend on the processing

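The count of 5446 genes called between 9cisRA and DMSO lay between 3740 and 6260 under every alternative except a minimum of 2-fold (160), and between 5036 (without culture 2 duplicate 1 of 9cisRA) and 5593 when 1 library was left out. The 53 genes called between the isomers became 35 under quantile normalization, 10 without the replicate block, 292 with 36 libraries as samples, 186 with the culture as a random effect, 352 with only these groups fitted, 30 without a variance trend, 106 with voom, 18 at an adjusted p below 0.01 and 4 at 2-fold. They were 112 without mouse 1, 84 without mouse 2, where duplicates of 1 culture served as samples, and 49 to 77 without 1 library. The 2040 changes with time became 1073 without the replicate block, 3267 with 36 libraries, 1005 with only the groups compared, 794 at an adjusted p below 0.01, 42 at 2-fold and 1147 without mouse 1, and 1663 to 2455 without 1 library. Quantile normalization turned the log2 fold changes of Krt7 to -0.0067 and of Krt8 to -0.035, and set those of Krt19 and Fabp1, the 2 highest genes, to 0. The fit without the pairing by culture called 4467 genes for 9cisRA against DMSO. Of 240 called values of named genes, 199 kept their direction and call throughout. The cause of the other changes was not tested. A typical gene had an SE of 0.072, and 1 read of a 2000-base gene is worth 0.0183 to 0.0219 RPKM, which limits genes near 0. Intervals rest on the residual spread pooled over the 9 groups after the culture block, and not on the spread of the 2 cultures in the groups compared.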
